A study of Rattus norvegicus with 59 samples.

Results

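The change in the liver response to chromium between the first and the third day was read from 20 of the 59 arrays of a rat liver study. The members were the 5 control and 5 exposed livers of day 1 and the 5 control and 5 exposed livers of day 3, and all 20 were used. For each gene, the exposed-minus-control difference of day 1 was subtracted from that of day 3, so each day was set against its own controls. The resulting difference of differences is above 0 where expression in exposed livers rose relative to controls between the days, and below 0 where it fell. Male Sprague-Dawley rats had received a single intraperitoneal injection of sodium dichromate, labelled as 20 mg/kg, or of sterile saline, and each array held total RNA of 1 liver. The labels give 20 mg/kg for all exposed animals, while the methods of the study name another dose in 1 place. Each animal was killed at 1 time point, so no liver was followed over time, and the animals carried no transgene or deletion. The whole tissue was measured, so fewer cells of a type and less RNA per cell cannot be told apart.

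Hexavalent chromium enters cells through anion transporters and is reduced inside them, a process that gives rise to radicals, DNA adducts and protein damage. The liver takes up much of an injected dose, and hepatocytes, its main cell type, carry out amino acid breakdown, bile acid synthesis and drug metabolism through highly expressed enzymes. In an injured liver these enzymes often fall while genes for ribosome assembly, chaperones, proteasomes and acute phase proteins rise, and both can return towards control levels as the tissue repairs.

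Values are log2 signals, so a difference of 1 is a 2-fold change, and a gene was read on its brightest probe set. Signals of hepatocyte markers were high in all 20 livers, with list means between 13.38 and 13.61. Pairs of livers within a group correlated between 0.9824 and 0.9948 over all probe sets, and no pair held identical values. The exposed livers of day 1 were the most variable group, with a median SD per probe set of 0.191 against 0.147 in exposed livers of day 3, 0.147 in controls of day 1 and 0.122 in controls of day 3. Replicate 5 of the exposed livers of day 1 stood apart, with an array weight of 0.243, the lowest of the Cr arrays, and key counts are therefore given with and without it.

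Between days 1 and 3 the exposed livers moved back towards the controls in most of the genes that had responded. Of 16142 probe sets tested, 621 changed by 1.8-fold or more at an adjusted p of 0.05 or less in the difference of differences (3.85%), 309 higher (1.91%) and 312 lower (1.93%). The count was 899 without replicate 5 of the exposed livers of day 1 and 440 without replicate 4 of that group, the highest and lowest over the 20 arrays left out in turn. Read per gene, 382 of 9642 genes were called (3.96%), 191 higher (1.98%) and 191 lower. On day 1 itself 771 probe sets were called in exposed against control livers (4.78%), or 496 genes (5.14%), 278 higher (2.88%) and 218 lower (2.26%). With the values quantile-normalized again, the day 1 split of 424 probe sets higher and 347 lower became 335 and 414, and that of the difference of differences 343 and 256. Of the 496 genes, 404 passed the adjusted p in the difference of differences. On day 3 limma called 0 probe sets (0.0%), where 1378 passed an unadjusted p of 0.05 (8.54%) and 53 of them changed by 1.8-fold or more (0.328%).

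**Figure D1:**
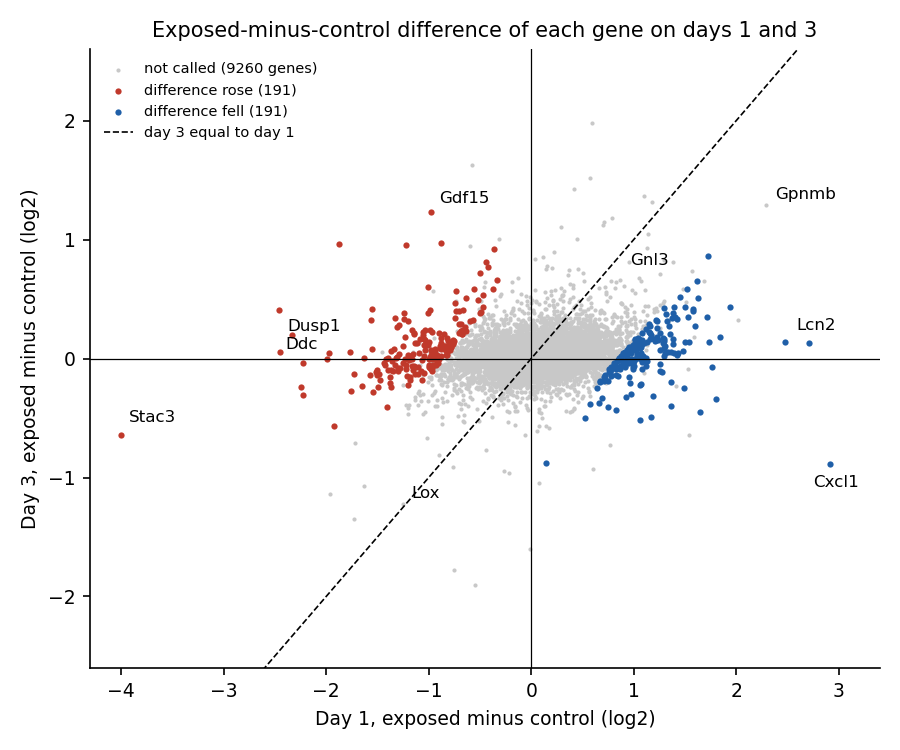
Exposed-minus-control log2 difference on day 1 (horizontal axis) and day 3 (vertical axis) of 9642 genes, 1 point each, with the 191 genes whose difference rose in red and the 191 whose difference fell in blue. Most called genes lie far from 0 on day 1 and near 0 on day 3, while genes near the dashed line, such as Lox, held their day 1 difference.

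The exposed livers carried most of this change. All 382 called genes moved between the days in the exposed livers in the direction of the call, and the controls held a median of 5.19% of the difference of differences. The controls held over 50% of it in 7 genes, among them Gdf15, Jun and Akr1d1, and over 25% in 44. Controls of day 3 against controls of day 1 gave 2 called probe sets (0.0124%), both lower and both read on genes of dividing cells, Top2a and Cdca2. At an unadjusted p of 0.05, 1388 probe sets passed between the control groups (8.6%). The same comparison in exposed livers called 607 probe sets (3.76%).

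**Figure D2:**
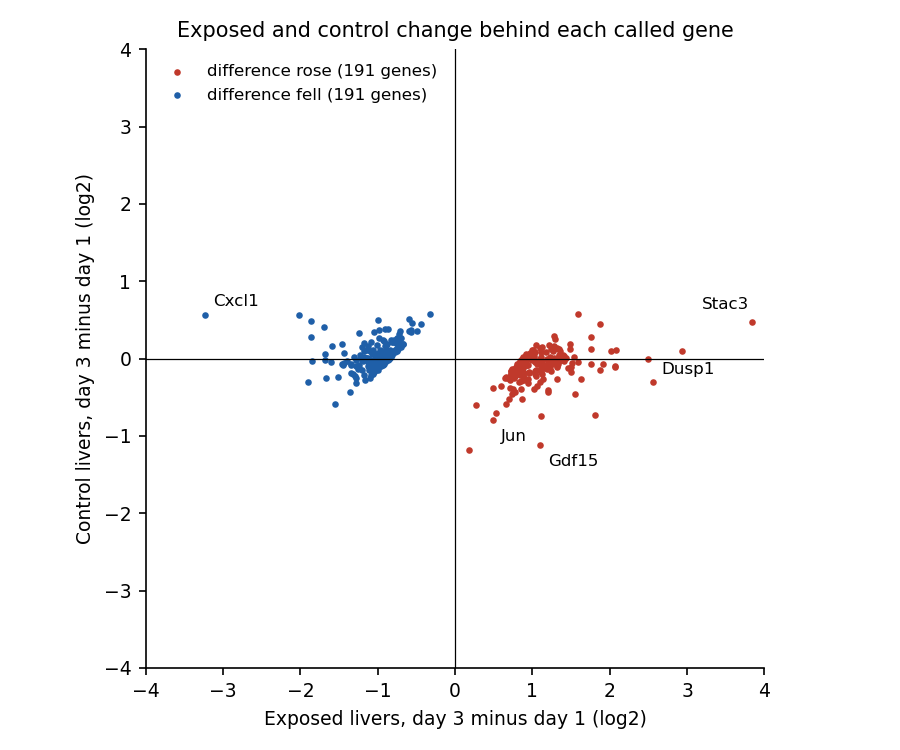
Log2 change from day 1 to day 3 in exposed livers (horizontal axis) and in control livers (vertical axis) for the 382 called genes, red where the exposed-minus-control difference rose and blue where it fell. The points spread widely along the horizontal axis and stay near 0 on the vertical one, apart from genes such as Gdf15 and Jun, which were lower in controls of day 3.

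Of the 382 called genes, 375 had passed the adjusted p on day 1, and all 375 had a day 1 difference of the opposite sign. Because day 1 enters the difference of differences, that relation is largely fixed by the arithmetic and is given as a description. The share of the day 1 difference left on day 3 is a description too, since genes chosen for a large day 1 difference have a share that is lowered by the choice. Over the 496 genes called on day 1, the median share left on day 3 was 9.45% of the log2 difference. It was 13.7% for the 278 genes that had been higher, with quartiles of 3.59% and 26.1%, and 6.01% for the 218 that had been lower, with quartiles of -5.64% and 15.1%. Less than 25% in either direction was left in 368 genes, and over 50% in 24.

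The animals of day 1 differed in how strongly they had responded. The 278 genes called higher on day 1 averaged 1.42, 0.90, 1.23, 1.46 and 0.67 above the control mean in exposed replicates 1 to 5. On day 3 the same genes averaged 0.06, 0.33, 0.28, 0.15 and 0.05 above the controls of that day, so the highest animal of day 3 lay below the lowest of day 1. For the 218 genes called lower, the exposed livers of day 1 averaged -1.37, -0.94, -1.22, -1.49 and -0.83, and those of day 3 averaged -0.15, -0.11, -0.13, 0.03 and 0.06. These genes were chosen on the day 1 livers, so the day 1 averages are a description.

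The largest fall was in Cxcl1, a chemokine that draws neutrophils. On day 1 it read 6.88, 7.05, 6.54, 7.72 and 6.66 in control livers and 9.06, 10.57, 11.11, 8.99 and 9.70 in exposed livers. On day 3 the readings were 7.35, 8.95, 7.78, 6.73 and 6.87 in controls and 6.94, 6.46, 6.33, 6.84 and 6.67 in exposed livers. The groups were fully separate on day 1 and overlapped on day 3, when 3 exposed livers lay below all controls and the other two in the lower part of the control range. Its difference went from 2.92 to -0.89, a difference of differences of -3.81 with an SE of 0.55 (adjusted p = 4.87e-05). The unadjusted p of the day 3 difference was 0.0304.

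Some other inflammatory genes fell as well. In the list of NF-kB regulators and chemokines, 5 of 17 genes tested fell and 0 rose, where 28.1% of all genes tested passed the adjusted p, 18.0% lower and 10.1% higher. Bcl3, a nuclear partner of NF-kB, went from 1.29 to 0.02 on this probe set, while another of its probe sets gave a difference of differences of 0.08. Icam1, an adhesion molecule for leukocytes, went from 0.97 to 0.22. Among interferon-stimulated genes 5 of 24 fell, near the share over all genes tested, and 0 rose. The largest falls there were in Isg15, a ubiquitin-like modifier, from 1.36 to -0.40, and in Usp18, the protease that removes it, from 0.82 to -0.43.

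Acute phase proteins, which hepatocytes secrete during inflammation, gave 5 of 24 lower, near the share over all genes tested, 1 higher and a median difference of differences of -0.06. Lcn2, which binds bacterial siderophores, read 4.66, 5.49, 5.69, 4.96 and 5.26 in controls and 6.33, 6.80, 8.33, 7.36 and 10.78 in exposed livers of day 1. It read 7.05, 5.15, 5.27, 5.89 and 5.47 in controls and 6.20, 4.94, 7.59, 5.90 and 4.86 in exposed livers of day 3. Replicate 5 of day 1 was far the highest of its group, and the groups overlapped on day 3. The difference of differences was -2.58 with an SE of 0.95 (adjusted p = 0.0467), and without that replicate it was -1.87 and missed the threshold, as it did when any 1 of 13 other arrays was left out.

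Markers of Kupffer cells, sinusoidal endothelium and stellate cells gave few calls in the difference of differences. For Kupffer cells and macrophages, 0 of 13 markers changed in the difference of differences, and list means ran from 8.54 to 9.03 in controls of day 1, 8.66 to 9.16 in exposed livers of day 1, 8.80 to 9.01 in controls of day 3 and 8.70 to 9.22 in exposed livers of day 3. At an unadjusted p of 0.05 none of the 13 passed either. For sinusoidal endothelium 2 of 11 fell, Fcgr2b and Pecam1. For stellate cells and fibroblasts 3 of 17 fell, Timp1, Rgs5 and Sparc, of which the Sparc call was lost in 19 of 31 alternatives. Both counts were near the 18.0% of all genes tested that fell. Timp1, an inhibitor of matrix proteases, went from 1.54 to 0.14. Lum, a matrix proteoglycan of the same cells, read 1.54 on day 1 and -0.65 on day 3 without passing (adjusted p = 0.206). Only 2 neutrophil markers were bright enough to be tested, S100a9 and Fcgr3a, and neither passed in the difference of differences, with S100a9 going from 1.34 to 0.32. The mean of these 2 markers ran from 0.61 to 1.48 above the control mean in exposed livers of day 1 and from 0.09 to 0.45 in those of day 3. The controls themselves ran from -0.49 to 0.92 on day 1 and from -0.13 to 0.24 on day 3, so the groups overlapped on both days. The part of such cells in the fall of inflammatory genes was not tested.

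Krt8 and Krt18, the keratin pair of simple epithelia including hepatocytes and bile ducts, were among the 15 largest falls. Krt8 went from 1.49 to -0.25 and Krt18 from 1.36 to -0.20. They stood on the cholangiocyte list, where the other pair of genes tested, Epcam and Spp1, did not pass. The mean over the 4 genes exceeded the control mean by 2.13, 0.75, 1.48, 1.97 and 0.27 in the exposed livers of day 1 and by 0.13, 0.31, 0.26, 0.14 and 0.01 in those of day 3. Further large falls were in Lgals3, a galectin of macrophages and injured epithelia, from 2.48 to 0.13, S100a10, an annexin partner, from 1.84 to 0.18, and Id1, an inhibitor of basic helix-loop-helix factors, from 1.76 to -0.07. Mybl1, a MYB family transcription factor, went from 1.803 to -0.342.

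Genes that build ribosomes gave the largest number of falls of any list. In the list of ribosome biogenesis and nucleolus genes, 37 of 44 fell and 0 rose, with a median difference of differences of -0.69 where the median over all genes tested was -0.06. The list median of the exposed-minus-control difference was 0.97 on day 1 and 0.16 on day 3, and the control livers shifted by a median of -0.03. Nop56, a core protein of the particles that methylate ribosomal RNA, read 9.24, 9.25, 9.43, 9.20 and 9.35 in controls and 11.08, 10.42, 10.83, 11.07 and 10.08 in exposed livers of day 1. It read 9.13, 9.01, 9.20, 9.23 and 9.19 in controls and 9.51, 9.78, 9.63, 9.33 and 9.22 in exposed livers of day 3. The groups were separate on day 1, and on day 3 only the lowest exposed liver reached into the control range. Its difference fell from 1.40 to 0.35, by 1.06 with an SE of 0.20 (adjusted p = 4.76e-04).

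Return was not equal across this list. Fbl, the methyltransferase of the same particles, went from 1.00 to -0.02, and Ebna1bp2, a nucleolar scaffold of the large subunit, from 1.26 to 0.07. Gar1, a protein of pseudouridylation particles, kept more, from 1.58 to 0.42. Rrs1, a large-subunit assembly factor, went only from 0.87 to 0.66 and did not pass (adjusted p = 0.560), and Gnl3, a nucleolar GTPase, went from 1.05 to 0.68 (adjusted p = 0.280). Ppan, another large-subunit assembly factor, went from 1.25 to 0.71 (adjusted p = 0.0676). On day 3, 39 of the 44 genes were above the controls, where 5319 of all 9642 genes tested were. An unadjusted p of 0.05 was passed by 14 of the 44, where 8.36% of all genes tested did, although 0 passed the adjusted p.

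By liver, the list mean exceeded the control mean by 1.13, 0.72, 0.96, 1.22 and 0.60 in exposed livers of day 1. On day 3 the exposed livers exceeded their controls by 0.14, 0.39, 0.25, 0.23 and 0.08, with control livers between -0.22 and 0.13. Every exposed liver of day 3 thus lay below every exposed liver of day 1, and 4 of 5 lay above all controls of their day.

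**Figure D3:**
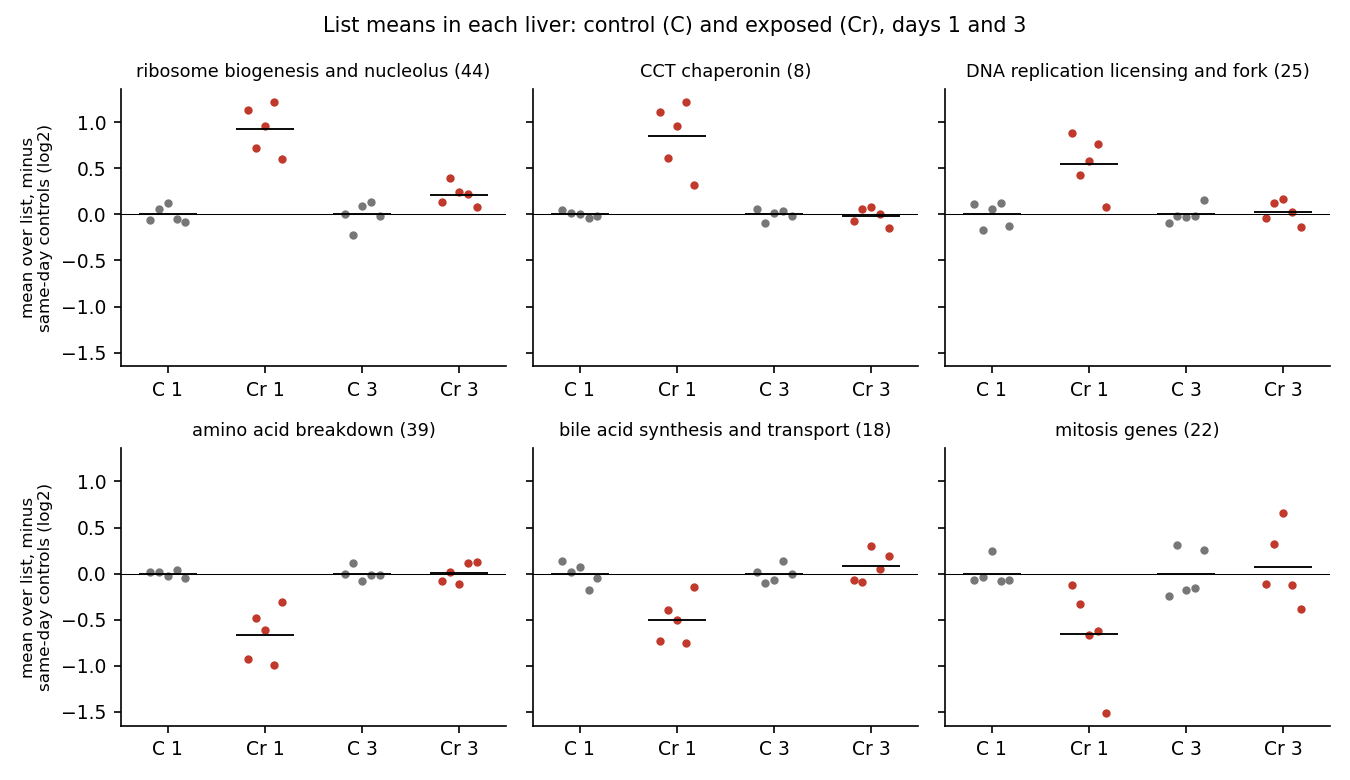
Mean over each of 6 gene lists in every liver, minus the mean of the same-day controls (vertical axis, log2), for control (C, grey) and exposed (Cr, red) livers of days 1 and 3, with a line at each group mean and the number of genes in parentheses. The ribosome biogenesis list of exposed livers runs from 0.60 to 1.22 on day 1 and from 0.08 to 0.39 on day 3, and the mitosis list spreads more widely than the others in both exposed groups.

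The promoters of 3 genes of the list that fell, Ebna1bp2, Fbl and Rrp12, are shown because they carry an E-box, the 6 letters CACGTG, which is its own reverse complement and can be bound by MYC and other basic helix-loop-helix factors. Each is 300 bases of RefSeq sequence on build GRCr8, from 250 bases before the annotated start to 50 after it, 5′ to 3′ along the gene, with the E-box in capitals. The E-box begins at position 31 in Ebna1bp2, 22 in Fbl and 4 in Rrp12, counted from 1 at the start. Ebna1bp2 lies on the plus strand (chr5:137433284-137433583), Fbl on the plus strand (chr1:92597157-92597456) and Rrp12 on the minus strand (chr1:250655269-250655568).
Ebna1bp2: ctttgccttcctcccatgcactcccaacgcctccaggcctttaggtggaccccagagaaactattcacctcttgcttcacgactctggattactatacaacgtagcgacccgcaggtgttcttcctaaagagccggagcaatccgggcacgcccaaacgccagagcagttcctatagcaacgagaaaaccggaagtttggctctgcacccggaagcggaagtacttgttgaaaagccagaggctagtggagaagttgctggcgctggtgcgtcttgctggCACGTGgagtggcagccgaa
Fbl: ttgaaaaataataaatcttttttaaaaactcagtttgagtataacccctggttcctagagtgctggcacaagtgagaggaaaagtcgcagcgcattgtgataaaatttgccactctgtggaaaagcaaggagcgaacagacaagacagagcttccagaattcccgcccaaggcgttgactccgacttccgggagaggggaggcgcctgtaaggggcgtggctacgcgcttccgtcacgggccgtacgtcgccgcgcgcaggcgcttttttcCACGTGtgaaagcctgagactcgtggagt
Rrp12: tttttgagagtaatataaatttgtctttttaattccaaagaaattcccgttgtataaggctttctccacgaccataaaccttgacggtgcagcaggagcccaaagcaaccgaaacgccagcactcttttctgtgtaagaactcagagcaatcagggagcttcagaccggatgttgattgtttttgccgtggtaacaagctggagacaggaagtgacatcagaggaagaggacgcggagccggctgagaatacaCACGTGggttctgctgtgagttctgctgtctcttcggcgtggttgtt
Of 41 promoters found for the list, 14 (34.1%) held CACGTG, against 9.72% of the 8120 promoters of genes tested and 6.65% of all 27457 promoters. Other lists also held it often, with 5 of 17 promoters of aminoacyl-tRNA synthetases (29.4%), 2 of 9 of polyamine genes (22.2%) and 5 of 23 of the integrated stress response (21.7%). It was held by 0 of 8 promoters of CCT chaperonin genes and 1 of 16 of cytosolic ribosomal proteins, lists whose tested genes all fell. Amino acid breakdown genes, of which most rose, held it in 0 of 29. An ATF4-type element, named for the factor that drives integrated stress response genes, was also searched for. It was held by 7 of 17 promoters of aminoacyl-tRNA synthetases (41.2%) and 4 of 23 of the integrated stress response (17.4%). The ribosome biogenesis list held it in 2 of 41 (4.88%) and cytosolic ribosomal proteins in 0 of 16, against 0.628% of the 8120 promoters of genes tested. These matches describe the letters in the window and show no binding. Myc, which codes for one of the factors that read the E-box, was 1.01 above controls on day 1 and 0.55 on day 3, and its difference of differences did not pass.

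Genes for ribosomal proteins, aminoacyl-tRNA synthetases and nucleotide synthesis fell as well. All 18 cytosolic ribosomal proteins tested fell, by small amounts, with a list median going from 0.47 to 0.07, and Rpl6 of the large subunit went from 0.65 to 0.09. Of 19 aminoacyl-tRNA synthetases, which charge tRNAs, 10 fell and 0 rose, led by Nars1 from 0.90 to 0.05. In nucleotide synthesis 8 of 20 fell and 1 rose, and Ctps1, which makes CTP, went from 1.25 to 0.21. Polyamine synthesis and control gave 3 of 10 lower and 1 higher. The shares over all genes tested were 18.0% lower and 10.1% higher. The polyamine list had a median of 0.06 on day 1 and of -0.11 in the difference of differences. Its enzymes Srm and Odc1 went from 0.95 to 0.10 and from 0.75 to -0.08. Pprc1, a coactivator for genes of mitochondrial and ribosomal function, kept more than these, from 1.73 to 0.87 (adjusted p = 0.0251), a call lost when any 1 of 5 arrays was left out.

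Cytosolic chaperone and proteasome genes fell to list medians near 0. All 8 subunits of the CCT chaperonin, which folds actin and tubulin, fell, with a list median going from 0.84 to 0.00. Cct2 read 10.21, 10.10, 10.05, 10.09 and 10.07 in controls and 11.42, 10.83, 11.19, 11.55 and 10.60 in exposed livers of day 1. On day 3 it read 10.18, 10.02, 10.06, 10.24 and 10.08 in controls and 10.01, 10.16, 10.25, 10.12 and 10.02 in exposed livers. The groups were separate on day 1 and covered the same range on day 3, and the difference of differences was -1.02 with an SE of 0.16 (adjusted p = 8.83e-05).

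Of 30 proteasome subunits 23 fell and 0 rose, with a list median going from 0.46 to -0.05. Psmd14, the deubiquitinase of the proteasome lid, went from 0.65 to -0.12. Of 20 cytosolic heat shock and chaperone genes 11 fell and 0 rose. Hsph1, an HSP70 exchange factor, went from 0.98 to -0.30, with an unadjusted p of 0.0402 on day 3. Among ER folding genes, 4 of 19 fell, near the 18.0% of all genes tested that fell. The list median on day 1 had been only 0.04.

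Of 20 p53 targets 7 fell and 1 rose. Ccng1, a cyclin induced by p53, went from 1.42 to 0.03, Aen, a p53-induced nuclease, from 1.38 to 0.12, and Mdm2, the ubiquitin ligase for p53, from 1.36 to 0.20. The Mdm2 call was lost without replicate 1 or 4 of the exposed livers of day 1 or replicate 1 of those of day 3. Cdkn1a, the cell cycle inhibitor p21, went from 1.20 to 0.39 and did not pass (adjusted p = 0.137). It read 7.88 in replicate 5 of the exposed livers of day 1 against a group median of 9.76, and without that replicate it passed with a difference of differences of -1.21, and it passed at -1.22 with the controls of all days pooled. Pooled controls cancel, so values given with them are the change of the exposed livers alone between the days.

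NRF2 targets, the antioxidant programme, gave 3 of 23 lower and 1 higher, both below the shares of 18.0% and 10.1% over all genes tested. Without replicate 5 of the exposed livers of day 1, 8 were lower. Over all 16142 probe sets tested, leaving that array out raised the number lower at the adjusted p from 2442 to 3120. Nqo1, a quinone reductase and the clearest of the NRF2 targets, read 7.91, 7.62, 7.69, 8.42 and 7.74 in controls and 9.79, 9.11, 10.04, 10.19 and 8.91 in exposed livers of day 1. By day 3 the signals were 7.66, 7.72, 7.15, 7.60 and 7.69 in controls and 7.63, 7.58, 7.71, 7.83 and 7.78 in exposed livers. The separate groups of day 1 overlapped on day 3, and the difference fell by 1.60 with an SE of 0.29 (adjusted p = 3.30e-04).

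Of 8 metallothionein and zinc transport genes 0 fell and 1 rose, the transporter Slc30a10. The shares over all genes tested were 18.0% lower and 10.1% higher. Mt2A, a metallothionein that binds zinc and other metals, read 8.81, 11.14, 12.20, 9.38 and 12.18 in exposed livers of day 1, against 8.36, 8.24, 9.03, 9.78 and 8.21 in controls. On day 3 it read 8.75, 7.86, 8.15, 9.18 and 9.26 in exposed livers and 8.60, 7.74, 8.24, 8.40 and 8.60 in controls. Exposed livers of day 1 were split, with replicates 2, 3 and 5 high and the other two within the control range. The difference went from 2.02 to 0.32, and the difference of differences of -1.70 with an SE of 0.66 missed the threshold (adjusted p = 0.0587). It passed without replicate 1 or replicate 4 of that group, replicate 4 of the controls of day 1 or replicate 2 of the controls of day 3, and at -2.10 with pooled controls.

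The integrated stress response list holds genes driven by ATF4 when translation is held back. In the difference of differences it had no common direction, with 3 of 26 higher and 2 lower. The shares over all genes tested were 10.1% and 18.0%. On day 3, however, 23 of the 26 genes were above the controls, with a list median of 0.23. Of all 9642 genes tested, 5319 were above the controls on that day, with a median of 0.01. Of the 26 list genes, 8 passed the unadjusted p used for the ribosome list, against 8.36% of all genes tested, and 0 passed the adjusted p. The exposed livers of day 3 exceeded the control mean by 0.14 to 0.49, overlapping the controls at -0.22 to 0.24. Slc3a2, a subunit of amino acid transporters, went from 1.08 to -0.03. Gdf15, a stress hormone that curbs appetite, went the other way, from -0.98 to 1.24. It read 6.30, 8.08, 7.38, 6.95 and 7.57 in controls and 6.83, 5.82, 6.16, 6.52 and 6.07 in exposed livers of day 1. By day 3 the signals were 6.57, 5.68, 6.11, 6.04 and 6.29 in controls and 6.75, 6.93, 6.36, 8.10 and 8.74 in exposed livers. The groups overlapped on both days, the controls themselves were 1.12 lower on day 3, and replicates 4 and 5 of the exposed livers of day 3 were the highest. The rise was 2.21 with an SE of 0.48 (adjusted p = 1.55e-03), with the control change making up over 50% of it, and 1.10 with pooled controls. Fgf21, another stress hormone of the liver, read 0.57 on day 1 and 1.51 on day 3 and did not pass (adjusted p = 0.453).

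Replication and mitosis genes, both of dividing cells, did not move together. Of 25 genes of DNA replication licensing and the fork, 14 fell and 0 rose, with a list median going from 0.64 to 0.00. Mcm4, a subunit of the replicative helicase, went from 1.17 to 0.20, and Pold2, a subunit of polymerase delta, from 0.93 to 0.01. Mcm6, of the same helicase, went from 1.09 to 0.12 (adjusted p = 0.0348), and its control livers changed by -0.58. The Mcm6 call was lost when any 1 of 8 arrays was left out, and the value was -1.55 with pooled controls. Of 22 mitosis genes, only the transcription factor Foxm1 passed, with a rise of 0.62 that became 0.05 and missed the threshold with pooled controls. The list median of the difference of differences was 0.77.

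For the mitosis list the controls moved as much as the contrast did. The control livers changed by a median of -0.92 over the list between the days, and with pooled controls, which leave the exposed change alone, the median was -0.25. Exposed livers of day 1 stood at -0.12, -0.33, -0.66, -0.62 and -1.51 relative to their controls, and those of day 3 at -0.11, 0.32, 0.66, -0.12 and -0.39. Cyclin B2, Ccnb2, had the largest value of the list, 1.21, and did not pass (adjusted p = 0.091).

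**Figure D4:**
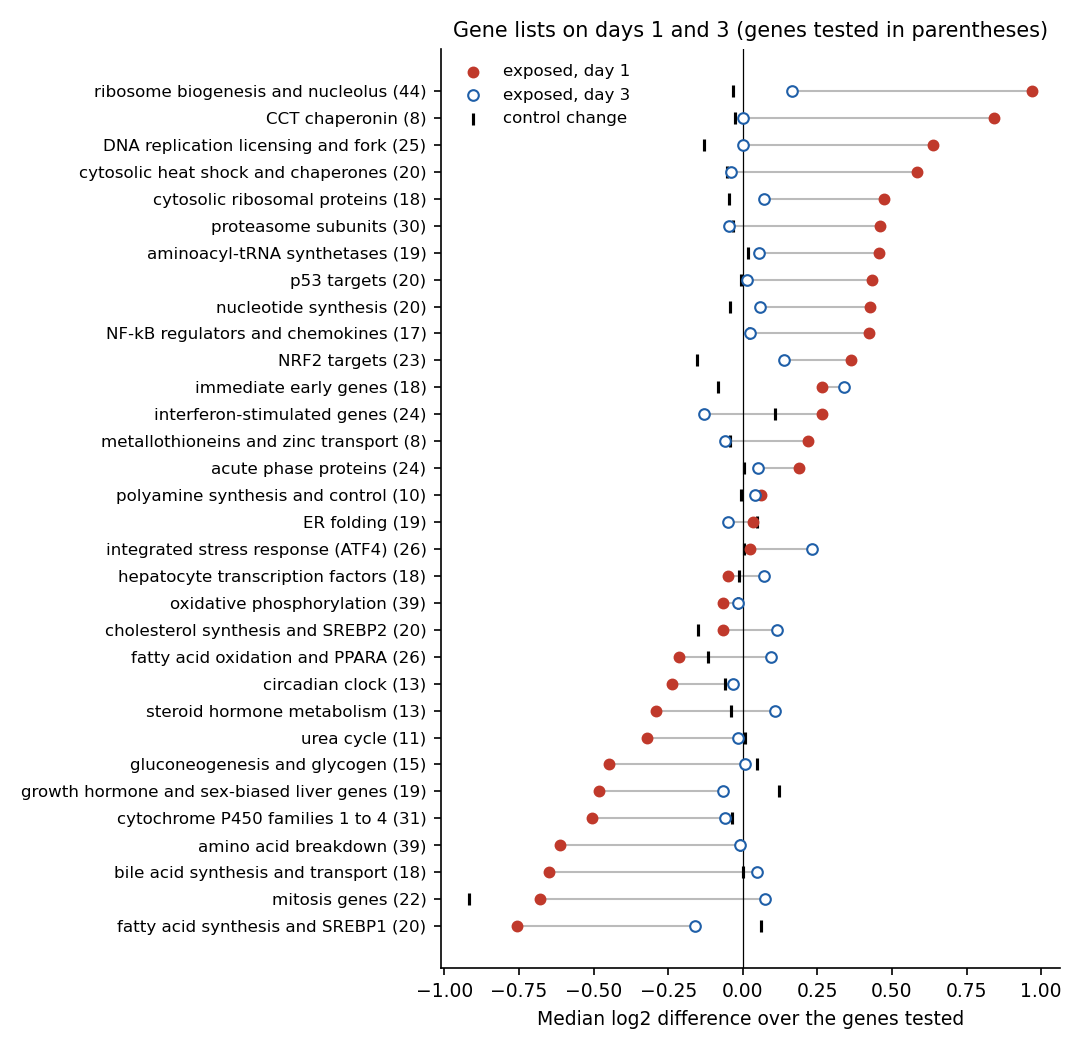
Median exposed-minus-control log2 difference over the genes tested of each pathway list on day 1 (filled red) and day 3 (open blue), with a black bar at the median change of the control livers from day 1 to day 3. Ribosome biogenesis moves from 0.97 to 0.16 and amino acid breakdown from -0.61 to -0.01, and the control bar of the mitosis list, at -0.92, lies farther from 0 than its day 1 value of -0.68.

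The largest rise was in Stac3, known for its part in coupling muscle excitation to contraction. It read 11.02, 11.82, 11.09, 11.02 and 11.93 in controls and 6.27, 8.07, 7.85, 6.67 and 7.99 in exposed livers of day 1. On day 3 it read 11.43, 11.73, 12.38, 11.58 and 12.15 in controls and 11.52, 10.94, 9.65, 12.01 and 11.94 in exposed livers. The groups were separate by over 2 log2 units on day 1 and overlapped on day 3, with replicate 3 still low. Its difference went from -4.005 to -0.642, a rise of 3.36 with an SE of 0.51 (adjusted p = 7.36e-05).

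Stac3 stood on the list of genes that growth hormone controls or that are sex-biased in liver, where 6 of 19 rose and 0 fell. The others that rose were Ghr, Igf1, Igfals, Hao2 and Ust5r, among them the growth hormone receptor, Ghr, from -0.48 to 0.11, and the IGF carrier subunit Igfals, from -0.78 to -0.05. Further genes of the list did not pass but stood far from the controls on day 3. Serpina7, which codes for thyroxine-binding globulin, read 0.59 on day 1 and 1.98 on day 3, and its controls changed by -1.22. Pbsn, a probasin gene, read -0.58 and 1.63, and Cyp3a9, a P450, read -0.75 and -1.78.

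Bcl6, a repressor of sex-biased liver genes, read 9.61, 7.41, 7.66, 8.002 and 7.42 in controls and 6.63, 8.80, 6.602, 8.94 and 9.09 in exposed livers of day 1. By day 3 the signals were 8.34, 9.92, 7.27, 9.56 and 9.98 in controls and 7.01, 7.76, 7.27, 7.15 and 7.86 in exposed livers. The day 1 groups overlapped widely, and on day 3 a single control, replicate 3, reached into the exposed range. The difference went from -0.01 to -1.60 and the difference of differences did not pass (adjusted p = 0.178), with the controls 0.99 higher on day 3.

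Amino acid breakdown was the list with the most rises, 25 of 39, with 0 lower and a median difference of differences of 0.64. Its median exposed-minus-control difference went from -0.61 on day 1 to -0.01 on day 3. Hykk, a kinase of lysine breakdown, went from -2.45 to 0.06, Prodh, which opens proline breakdown, from -1.52 to -0.11, Uroc1 of histidine breakdown from -1.31 to 0.01, and Gnmt, which consumes methyl groups, from -1.25 to -0.04. By liver, the list mean stood at -0.93, -0.48, -0.62, -0.99 and -0.31 relative to controls on day 1 and at -0.08, 0.01, -0.12, 0.12 and 0.12 on day 3, so the exposed livers of the 2 days did not overlap.

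Ddc, the decarboxylase that makes dopamine and serotonin from amino acids, had the smallest adjusted p of all genes tested. On day 1 it read 11.04, 11.04, 11.17, 10.85 and 11.10 in controls and 9.12, 9.44, 9.04, 8.68 and 8.95 in exposed livers. On day 3 the readings were 11.09, 10.90, 10.80, 11.001 and 11.04 in controls and 10.86, 10.83, 10.87, 11.08 and 11.18 in exposed livers. Both groups of day 3 covered nearly the same range. The rise of 1.99 had an SE of 0.15 (adjusted p = 3.48e-09), and another of its probe sets gave a smaller rise of 0.92.

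The urea cycle list, which disposes of the nitrogen, gave 5 of 11 higher and 0 lower. Gls2, the liver glutaminase, went from -1.29 to 0.28. Oat, ornithine aminotransferase, went from -1.93 to -0.56 (adjusted p = 0.0328), a call lost when any 1 of 7 arrays was left out. Car5a, a mitochondrial carbonic anhydrase that feeds bicarbonate to the cycle, went from -1.56 to 0.33. Of 15 gluconeogenesis and glycogen genes 6 rose and 0 fell, among them Ppp1r3b, which targets a phosphatase to glycogen, from -1.73 to -0.13, and Pc, pyruvate carboxylase, from -1.35 to -0.11.

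Bile acid synthesis and transport genes gave 10 of 18 higher and 0 lower, with a list median going from -0.65 to 0.05. Cyp8b1, the sterol 12-alpha-hydroxylase that sets the share of cholic acid, read 11.05, 10.91, 9.90, 9.56 and 10.26 in controls and 7.40, 9.45, 8.25, 7.94 and 10.88 in exposed livers of day 1. On day 3 it read 10.74, 10.35, 9.87, 10.94 and 10.36 in controls and 10.72, 10.56, 11.05, 10.78 and 11.21 in exposed livers. Replicate 5 of the exposed livers of day 1 lay within the control range and the other 4 below it. The rise was 1.97 with an SE of 0.57 (adjusted p = 0.0123), and 2.49 without that replicate.

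Slc10a1, the bile acid uptake transporter NTCP, went from -0.83 to 0.07. Nr0b2, the repressor SHP that restrains bile acid synthesis, went from -0.88 to 0.97, with an unadjusted p of 0.00239 on day 3. Its control livers changed by -0.75 between the days, and the rise of 1.85 became 1.11 with pooled controls.

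Among cytochromes P450 of families 1 to 4, which oxidise drugs, steroids and fatty acids, 17 of 31 rose and 0 fell. Cyp4f4 went from -1.42 to 0.00, Cyp2a1 from -1.09 to 0.04 (with a rise of 1.14, or 0.74 with pooled controls), and Cyp3a18 from -0.99 to 0.41. In steroid hormone metabolism 6 of 13 rose and 0 fell. Sult1c2, a sulfotransferase on none of the lists, read 8.27, 7.96, 7.76, 7.43 and 8.42 in controls and 5.66, 6.33, 6.15, 5.56 and 6.76 in exposed livers of day 1. By day 3 the signals were 8.51, 6.77, 8.95, 8.02 and 8.08 in controls and 9.03, 8.77, 8.61, 9.48 and 9.26 in exposed livers. The exposed livers were all below the controls on day 1, and on day 3 only 1 control reached into their range. The rise was 2.83 with an SE of 0.44 (adjusted p = 9.10e-05).

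In fatty acid synthesis 8 of 20 genes rose and 0 fell, and the list was the 1 with the lowest median on day 1, -0.76, going to -0.16. Fads2, a desaturase, went from -1.50 to -0.10 and Pklr, liver pyruvate kinase, from -1.50 to -0.14. Scd, the desaturase that makes oleic acid, stayed low instead, at -1.73 and -1.35 (adjusted p = 0.702), as did Pnpla3, a lipid droplet lipase, at -0.90 and -0.81 (adjusted p = 0.920). In fatty acid oxidation 10 of 26 rose and 1 fell. Ehhadh of peroxisomal oxidation went from -1.24 to 0.39 and Decr1 of mitochondrial oxidation from -0.64 to 0.51. The 1 that fell was Cpt1a, which admits fatty acids to mitochondria, from 1.04 to 0.01. In cholesterol synthesis limma gave 0 of 20 past the adjusted p and 2 of 20 past an unadjusted p of 0.05. Without replicate 5 of the exposed livers of day 1, 5 rose. Over all 16142 probe sets tested, leaving that array out raised the number higher at the adjusted p from 1556 to 1960.

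Dusp1, the phosphatase that switches off MAP kinases, was the next largest rise after Stac3. It read 10.23, 11.48, 11.08, 10.77 and 10.99 in controls and 8.38, 8.17, 8.20, 8.04 and 9.46 in exposed livers of day 1. On day 3 it read 10.96, 10.60, 10.64, 10.15 and 10.69 in controls and 10.82, 10.45, 10.25, 11.83 and 11.71 in exposed livers. The groups were separate on day 1 and overlapped on day 3. The rise was 2.87 with an SE of 0.42 (adjusted p = 5.60e-05).

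Among 18 immediate early genes, which respond to growth and stress signals within minutes, Dusp1 and Jun were the 2 that rose, and 0 fell. The shares over all genes tested were 10.1% higher and 18.0% lower, so 2 of 18 higher is near the share. Jun, a subunit of AP-1, was 0.36 below controls on day 1 and 0.92 above on day 3 (adjusted p = 0.0366). With pooled controls its change was 0.49 and missed the threshold, as it did when any 1 of 10 arrays was left out. Hepatocyte transcription factors gave 5 of 18 higher and 2 lower, against the same shares over all genes tested. Foxa2 went from -0.67 to 0.41 and Foxa3, of the same family, from 0.92 to 0.06 (adjusted p = 0.0489). The Foxa3 call was lost when any 1 of 14 arrays was left out. Oxidative phosphorylation hardly moved, with 3 of 39 higher and 2 lower and a median of 0.02.

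**Figure D5:**
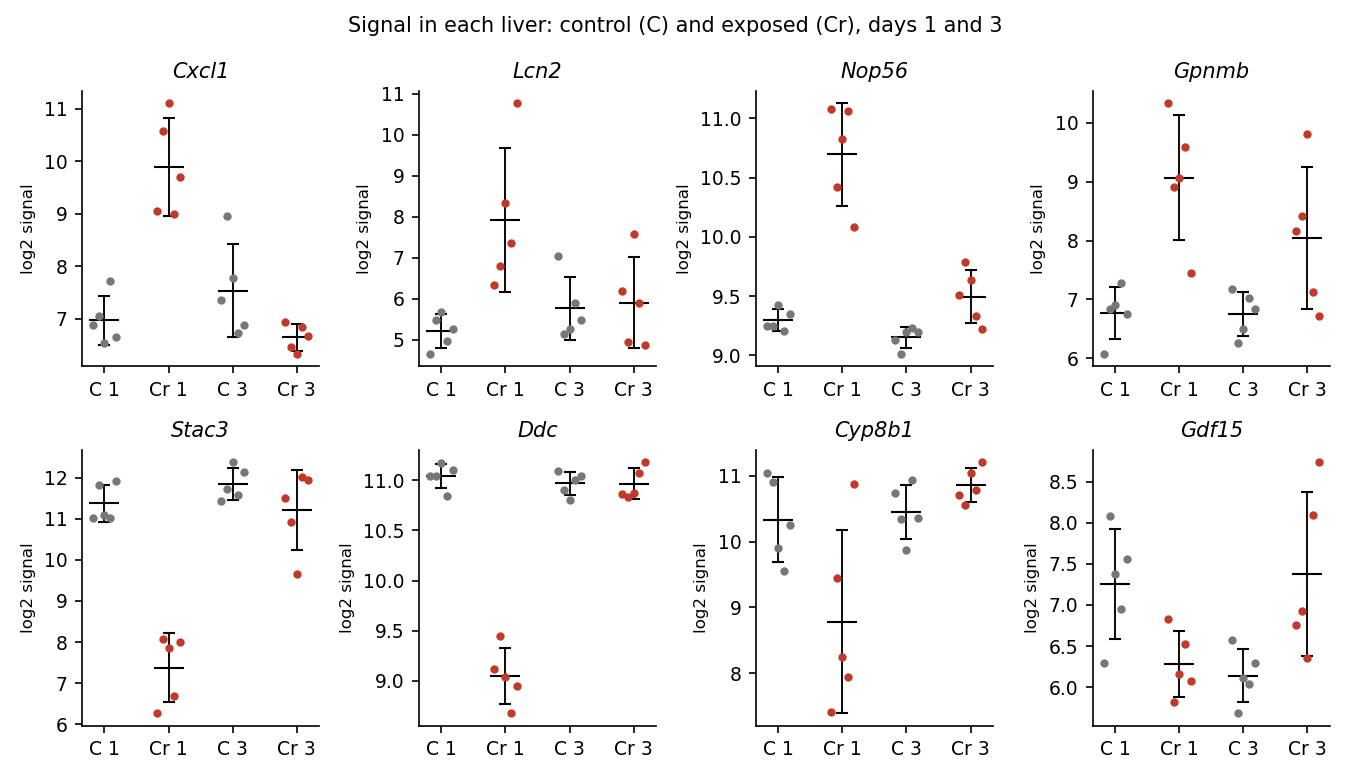
Log2 signal (vertical axis, different in each panel) of 8 genes in each of the 20 livers, control (C, grey) and exposed (Cr, red) of days 1 and 3, with bars at the mean and 1 SD (n = 5 per group). Cxcl1 and Nop56 are highest and Stac3, Ddc and, apart from 1 liver, Cyp8b1 lowest in exposed livers of day 1. Lcn2 has its highest mean in that group but overlaps with livers of day 3. Gpnmb stays high in 3 exposed livers of day 3, and Gdf15 is lower in controls of day 3 than in controls of day 1.

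In 24 of the 496 genes called on day 1, over 50% of the day 1 difference was left on day 3. At an unadjusted p of 0.05, 72 of the 496 differed in the same direction on day 3. These were 56 of the 278 that had been higher and 16 of the 218 that had been lower. Of all genes tested, 8.36% passed that p on day 3 in either direction, and 0 passed the adjusted p. The 72 include genes such as Nop56 that had mostly returned. Gpnmb, a glycoprotein of lysosome-rich macrophages and injured tissue, had the largest day 3 difference of the genes that had been called higher on day 1. It read 6.08, 6.84, 6.91, 7.27 and 6.76 in controls and 10.33, 8.90, 9.07, 9.58 and 7.44 in exposed livers of day 1. By day 3 the signals were 7.17, 6.26, 6.49, 7.03 and 6.83 in controls and 8.16, 8.41, 9.81, 7.13 and 6.73 in exposed livers. The groups were separate on day 1, and on day 3 replicates 1, 2 and 3 were above all controls while replicates 4 and 5 were within their range. The difference went from 2.30 to 1.29, and the difference of differences of -1.003 had an SE of 0.88 (adjusted p = 0.434).

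Spp1, the secreted matrix protein osteopontin, went from 1.29 to 0.82 and Atf3, a stress transcription factor, from 1.38 to 0.81. Lurap1l held at 1.14 and 1.05. On the low side Lox, which crosslinks collagen, held at -1.25 and -1.23 and Dab1, a signalling adaptor, went from -1.63 to -1.07. None of these passed in the difference of differences, with adjusted p between 0.392 and 0.982, which does not show that they were the same on both days. For Lox the difference of differences was 0.03 with an SE of 0.69.

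Of the 496 genes, 136 had a day 3 difference of the opposite sign to that of day 1. Only 15 of the 496 had such a difference at an unadjusted p of 0.05, and 0 passed the adjusted p. This count is therefore no result about the genes. Besides Gdf15, Nr0b2, Sult1c2, Cxcl1, Cyp3a18 and Hsph1 described above they included Nim1k, a kinase, from -1.22 to 0.96, Tmem30b, a flippase subunit, from 1.17 to -0.49, and Ms4a6a, a membrane protein of myeloid cells, from 1.06 to -0.52. At that p, 806 of 9642 genes passed on day 3 in either direction (8.36%).

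In 7 of the 382 called genes the day 1 difference had not passed the adjusted p. These were Jun, Hes1, Tsku, Angptl8, Glyatl2 and Lgals2, which rose, and Fabp5, which fell. Hes1, a repressor downstream of Notch, was 0.44 below controls on day 1 and 0.81 above on day 3 (adjusted p = 3.26e-03), and its controls changed by -0.59. Its rise of 1.25 became 0.66 with pooled controls. Fabp5, a fatty acid binding protein, went from 0.15 to -0.88 (adjusted p = 0.0141), and its controls changed by 0.46. Its fall was -0.56 with pooled controls.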

How the data were processed

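Liver RNA of single rats was hybridised to Affymetrix Rat Genome 230 2.0 arrays. The authors made the deposited log2 values by RMA normalization in Partek Genomic Suite, and these were used as given. Of 31099 probe sets, 57 controls were dropped. Each of the other 31042 was ranked by its lowest signal within the group where it was highest, and the top 52% (16142, edge at 5.27 log2) were tested. This rank filter stands in for the study's present calls. By the platform annotation 20826 probe sets had 1 gene symbol, 436 several and 9780 none, and a gene was read on its brightest probe set with 1 symbol (14217 genes, 9642 tested).

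Groups came from the sample labels. A linear model over the 30 Cr arrays, with 6 groups and no block, gave the difference of differences as a contrast. It was fitted with limma version 3.58.1 under R version 4.3.3, with statmod version 1.5.0 loaded. A call needed a Benjamini-Hochberg adjusted p of 0.05 or less over all 16142 probe sets and a 1.8-fold change. Lists were counted on the adjusted p alone. The members and lists were chosen with earlier results of these data known. Named genes were the 15 largest rises and 15 largest falls called, up to 4 members of each list with the largest change past the adjusted p (the 2 largest where none passed), and the 10 genes called on day 1 with the largest day 3 difference in the same and the 10 in the opposite direction. Other genes and list members were named after their values were seen. Day 1 enters both the day 1 contrast and the difference of differences. Alternatives were other filters, fits, normalizations, pooled controls and each array left out. The number of arrays limits the precision. The scripts were tested on simulated data. Promoters were from RefSeq.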

Additional observations from a re-analysis of the deposited data

Results flagged for a closer look

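The count of 621 probe sets is itself a difference between the effects of 2 days and is listed for that reason. Of the genes called on day 1, 15 stood on the other side of the controls on day 3 at an unadjusted p of 0.05, and 0 did at the adjusted p. Higher on day 3 were Gdf15, with a difference of differences of 2.21, Nr0b2 at 1.85, Sult1c2 at 2.83, Nim1k at 2.17, Atxn7l1 at 1.61, Cyp3a18 at 1.40, Abcc8 at 1.52, Ces1e at 1.11, Pcca at 1.35 and the locus LOC100910424 at 1.39. Lower on day 3 were Cxcl1 at -3.81, Ms4a6a at -1.58, Tmem30b at -1.66, Hsph1 at -1.27 and the locus LOC100909928 at -1.25.

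In 368 gene and group pairs, 24 single livers stood far from the other 4 of their group, where chance marks about 1 group in 20. In exposed livers of day 1 these were replicate 5 for Dusp1 (9.46), Cdkn1a (7.88), Pklr (8.26) and Lox (9.04) and replicate 1 for Cyp3a18 (10.69). In exposed livers of day 3 they were replicate 3 for Sez6 (7.42), Psmd14 (9.72), Uroc1 (11.33) and Timp1 (7.19), replicate 1 for Bcl3 (5.36) and replicate 5 for Usp18 (7.46). In controls of day 1 they were replicate 2 for Vxn (6.62), Cpt1a (10.08) and Timp1 (6.73), replicate 1 for Scd (10.89) and Bcl6 (9.61), and replicate 4 for Cyp2a1 (10.42). In controls of day 3 they were replicate 2 for Krt8 (10.23), Gnl3 (8.47) and Icam1 (8.84), replicate 5 for Mcm4 (7.36) and Slc10a1 (13.09), replicate 3 for Nqo1 (7.15) and replicate 1 for Acsm2 (8.34).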

How the results depend on the processing

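The count of 621 probe sets stayed within 1.5 times under all 31 alternatives, from 440 to 899 with 1 array left out and at 880 with array weights. With pooled controls, which cancel and leave the change of the exposed livers alone, 6421 probe sets passed the adjusted p alone, against 3998. The day 3 count of 0 became 1 with pooled controls, 3 with array weights, 53 on the unadjusted p, and ran from 0 to 2 with 1 array left out. The count of 2 between the control groups became 0 with the 20 arrays alone, with a mean signal of 6 or more or with plain variance, 8 with array weights, 58 on the unadjusted p, and ran from 0 to 3 with 1 array left out. Of the named genes past the adjusted p, 143 of 143 kept their direction in all 31 alternatives and 117 stayed past it. The largest number of lost calls was 15, without replicate 4 of the exposed livers of day 1. With 1 array left out, genes with a value near 0 turned sign, running from -0.29 to 0.38 for Lox, -0.33 to 0.08 for Lurap1l, -0.22 to 0.35 for Pnpla3, -0.21 to 0.09 for RT1-Ba and -0.02 to 0.75 for Scd, and RT1-Ba read 0.06 with array weights. Deviations of same-numbered livers correlated by 0.131 on average, against -0.033 for other numbers, a hint of a shared replicate effect. They were not taken as pairs because no label ties the numbers and 3 of 10 pairs were not over 0.1, down to -0.0373. With the replicate number as a block the count was 630 and 1 named call was lost. Signal over background limits what could be seen of genes below the filter, such as most neutrophil and lymphocyte markers.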
